A study of Acomys cahirinus and Mus musculus with 10 samples.

Results

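The genes described here are 10 regulators of the G1 phase of the cell cycle: the inhibitors *Cdkn1a* (p21), *Cdkn1b* (p27), *Cdkn1c* (p57), *Cdkn2a* (p16 and p19ARF) and *Cdkn2b* (p15), the checkpoint genes *Trp53*, *Mdm2* and *Rb1*, and the D-type cyclins *Ccnd1* and *Ccnd2*. They were taken as a list of mouse symbols by a rule that sets no threshold on a measured value, but with earlier results of these data known. Of the 10, 9 were among the 14537 gene pairs of *A. cahirinus* and *M. musculus* that had a value in every comparison. The remaining one, *Cdkn2b*, could be read in *A. cahirinus* but not with certainty in *M. musculus*. RNA was sequenced from a ring of ear tissue at the healing edge of an ear punch in sexually mature females. *A. cahirinus* is a spiny mouse that closes such holes by regeneration, and the *M. musculus* animals were of the outbred laboratory strain CD1, which heals them with a scar. Tissue was taken from uninjured ears (D0) and 5, 10, 15 and 20 days after injury (D5 to D20), with 3 animals in each group by the study's account. No transgene or drug treatment is described for these groups, apart from isoflurane anaesthesia in the ear punch assay.

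A cell commits to division in G1, when cyclin D and its kinases CDK4 and CDK6 phosphorylate the retinoblastoma protein and so release E2F transcription factors. The Cip/Kip inhibitors p21, p27 and p57 bind cyclin-CDK complexes broadly, whereas the INK4 inhibitors p16 and p15 bind CDK4 and CDK6 themselves. The transcription factor p53, encoded by *Trp53*, induces *Cdkn1a* after DNA damage and also induces *Mdm2*, whose product ubiquitinates p53 and keeps its level low, and p19ARF in turn restrains MDM2.

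The *A. cahirinus* values are those of assembled components, each the one whose BLASTN match to the *M. musculus* transcript had the top bit score below 99% identity. Identity over the match was 86.75% for *Cdkn1a* over 770 bases, 92.4% for *Cdkn1b* over 1434 bases, 92.06% for *Cdkn1c* over 945 bases, 86.9% for *Cdkn2b* over 771 bases and 87.18% for *Trp53* over 655 bases. It was 94.51% for *Rb1* over 2804 bases, 89.96% for *Mdm2* over 458 bases, 94.03% for *Ccnd1* over 1056 bases and 92.9% for *Ccnd2* over 916 bases. For *Cdkn2a* the match was only 119 bases long, at 90.76%. In each of the 10 cases the component's own best match was the same gene. On the GRCm38 assembly the genes lie at chr17:29090976-29100727 (*Cdkn1a*), chr6:134920401-134925513 (*Cdkn1b*), chr7:143458339-143461050 (*Cdkn1c*), chr4:89274471-89294653 (*Cdkn2a*), chr4:89306299-89311039 (*Cdkn2b*), chr11:69580359-69591873 (*Trp53*), chr14:73183673-73325822 (*Rb1*), chr10:117688875-117710758 (*Mdm2*), chr7:144929931-144939925 (*Ccnd1*) and chr6:127125162-127152193 (*Ccnd2*).

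Coding stretches of 3 genes are shown because the measurements below turn on them: *Cdkn1a*, which rose in *A. cahirinus* without a call in *M. musculus*, *Ccnd2*, with the largest fall in *M. musculus*, and *Cdkn2a*, whose assignment rests on a short match. All are read 5′ to 3′ on the strand of the gene from the reference sequences deposited for each species, with capitals at the bases that differ. The *Cdkn1a* stretch is 120 coding bases of exon 2 of 3 (chr17:29098431-29098550, plus strand, with positions and exons from the GENCODE annotation of GRCm38), with 14 differences.
*M. musculus* Cdkn1a: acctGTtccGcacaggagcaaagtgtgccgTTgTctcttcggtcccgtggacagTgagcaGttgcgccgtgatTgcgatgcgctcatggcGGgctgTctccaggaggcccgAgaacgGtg
*A. cahirinus* Cdkn1a: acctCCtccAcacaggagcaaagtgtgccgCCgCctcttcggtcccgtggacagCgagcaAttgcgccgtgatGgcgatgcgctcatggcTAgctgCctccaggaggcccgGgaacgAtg

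The *Ccnd2* stretch lies in exon 2 of 5 (chr6:127148760-127148879, minus strand), with 9 differences in 120 bases.
*M. musculus* Ccnd2: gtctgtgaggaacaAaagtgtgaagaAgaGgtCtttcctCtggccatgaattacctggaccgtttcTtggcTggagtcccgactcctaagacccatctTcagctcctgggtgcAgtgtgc
*A. cahirinus* Ccnd2: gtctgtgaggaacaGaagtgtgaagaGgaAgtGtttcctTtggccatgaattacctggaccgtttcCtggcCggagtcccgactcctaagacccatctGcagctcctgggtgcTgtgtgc

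The *Cdkn2a* stretch is 101 coding bases of the first exon of the p16 transcript (chr4:89281986-89282086, minus strand, exon 1 of 3), which the p19ARF transcript does not contain, with 11 differences. The *A. cahirinus* component therefore carries p16 sequence.
*M. musculus* Cdkn2a: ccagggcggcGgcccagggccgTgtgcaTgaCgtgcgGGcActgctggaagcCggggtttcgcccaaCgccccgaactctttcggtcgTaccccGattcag
*A. cahirinus* Cdkn2a: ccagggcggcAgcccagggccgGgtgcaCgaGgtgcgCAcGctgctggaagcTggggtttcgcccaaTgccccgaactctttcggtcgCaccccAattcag

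Levels below are group means in normalized reads per library, recovered from the deposited ratios and put on 1 scale within a species. Where 5 levels follow each other they stand in the order D0, D5, D10, D15 and D20. The scales of the species were set separately, so levels are compared only within a species. A change is the log2 ratio to D0, positive when higher after injury, and the bracket after it is a 95% interval that covers counting error only, since no value per animal was used. A gene is called at a posterior probability of differential expression of at least 0.95 in the study's own comparison, and "rose" and "fell" are written of called changes. Before they were put on 1 scale, the means of all features summed to between 14454829 and 18203633 reads per library in *A. cahirinus*. In *M. musculus* they summed to between 7330084 and 9409080. Part of this spread is the scale of each comparison. The D0 group alone summed to between 14492272 and 16900332 in *A. cahirinus* and between 7534537 and 9409080 in *M. musculus*. The median change over the 14537 pairs was 0.21 at D5 and 0.10 at D10 in *A. cahirinus*, and between -0.03 and 0.04 in every other comparison, so *A. cahirinus* changes at D5 are also given relative to 0.21 where this matters. The lowest means fell on 3 steps in each group, as 1 read in 1 of 3 libraries would give, apart from *A. cahirinus* at D15 with 2 steps. What lies behind this was not tested.

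Over 4 days and 10 genes in *A. cahirinus*, 17 of 40 comparisons were called higher and 11 lower. In *M. musculus* 7 of 40 were called higher and 14 lower, with *Cdkn2b* counted as not called there. Of the 17 higher calls in *A. cahirinus*, 4 were of *Cdkn2b*, which is not among the gene pairs of the background. The counts of the species therefore do not rest on like sets of genes. At D5, 5 of the 10 genes were called higher in *A. cahirinus*, against a background of 31.9% of gene pairs, and 2 were called lower (background 11.4%). At D10 it was 4 higher (21.9%) and 3 lower (11.9%), at D15 4 higher (18.8%) and 3 lower (14.9%), and at D20 4 higher (13.3%) and 3 lower (15.6%). In *M. musculus*, 1 gene was called higher at D5 (background 23.1%) and 3 lower (17.2%). At D10 2 were higher (21.3%) and 4 lower (17.7%), at D15 2 were higher (18.4%) and 4 lower (16.2%), and at D20 2 were higher (17.1%) and 3 lower (15.6%). The shares of the 10 genes called higher in *M. musculus*, 10% to 20%, lay below the background at D5 and D10 and slightly above it at D15 and D20, and those in *A. cahirinus*, 40% to 50%, lay above it on each day. The shares called lower, 20% to 30% in *A. cahirinus*, against 30% to 40% in *M. musculus*, also lay above the background on each day. With 10 genes, 1 gene is 10% of the list, so excesses in either direction rest on few genes. The lower calls were of *Rb1*, *Ccnd2* and *Cdkn1b*, and in *M. musculus* also of *Mdm2* at D10 and D15. The 4 comparisons of a species share the same D0 animals and do not count as separate evidence. Because the genes were chosen with earlier results of these data known, their shares are not those of an unselected list.

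**Figure D1:**
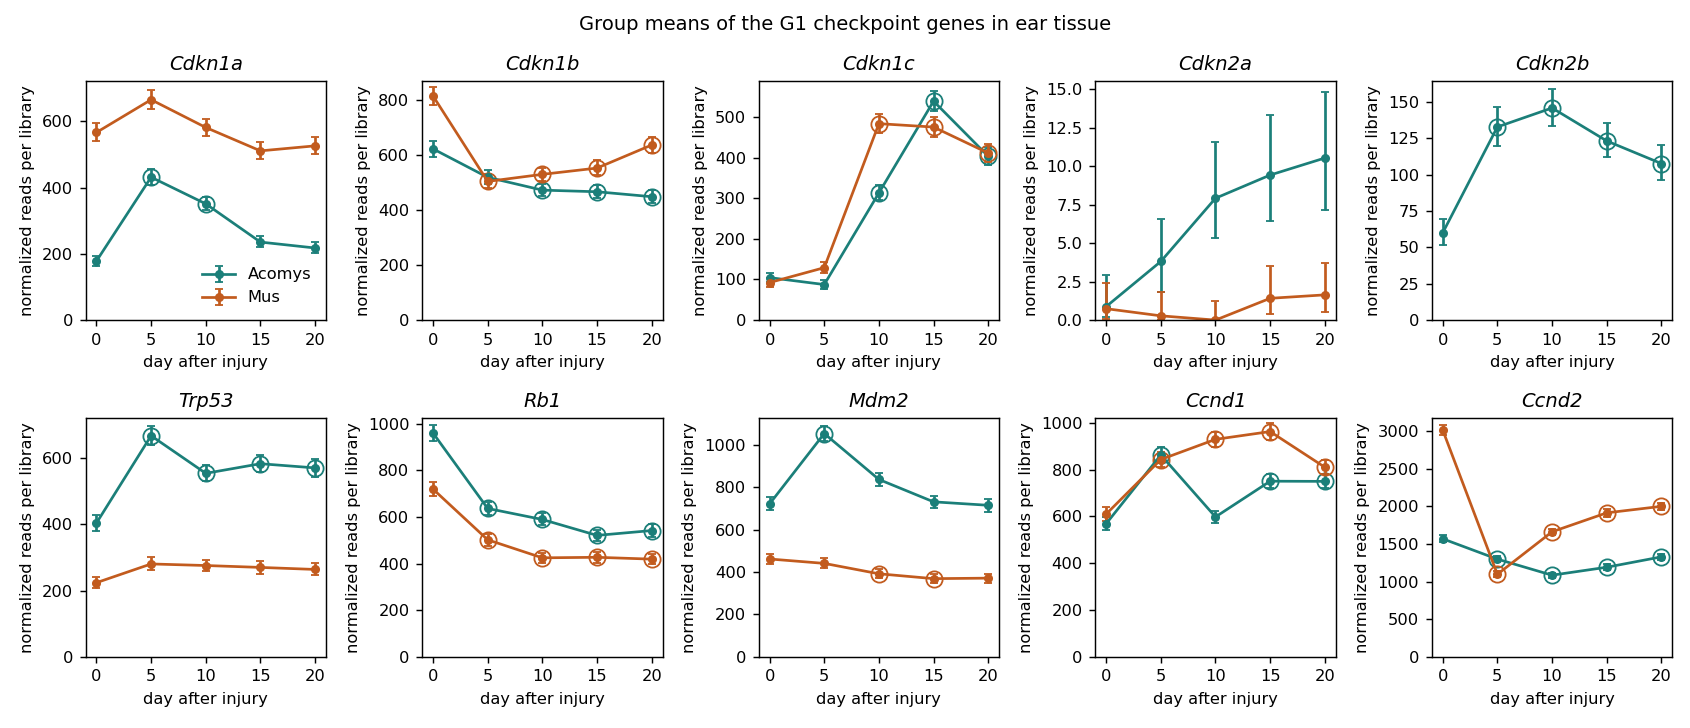
Group means in normalized reads per library (y, from 0) against day after injury (x) for each gene, with *A. cahirinus* (Acomys) in green and *M. musculus* (Mus) in orange, bars for the 95% counting interval and rings at days called against D0. *Cdkn1c* climbs in both species after D5, *Cdkn1a* peaks at D5 in *A. cahirinus*, and *Ccnd2* in *M. musculus* drops from 3013 to 1096 at D5. *Cdkn2b* is drawn for *A. cahirinus* alone, and levels of the species are on separate scales.

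*Cdkn1a*, the p53-induced Cip/Kip inhibitor, rose early in *A. cahirinus* and was called on no day in *M. musculus*. Its *A. cahirinus* levels were 178, 431, 351, 235 and 218. D5 was the highest group and D0 the lowest, and the counting intervals of D15 and D20 overlapped each other. The change was 1.27 [1.13, 1.42] at D5, a 2.42-fold rise, and 0.98 [0.84, 1.12] at D10. It was 0.40 [0.25, 0.55] at D15 and 0.29 [0.12, 0.45] at D20, neither of them called. Relative to the median pair the D5 change was 1.07. A further component with *Cdkn1a* as its best match, at 82.8% identity, went through 161, 456, 359, 246 and 231 and was called on 3 days. The *M. musculus* levels were 566, 665, 581, 511 and 526. Those changes ran from 0.23 [0.14, 0.33] at D5 to -0.15 [-0.25, -0.05] at D15. From high to low the order was D5, D10, D0, D20 and D15, and apart from D5 each group overlapped its neighbour by counting error.

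*Cdkn1b*, the Cip/Kip inhibitor most often linked to quiescence, fell in both species. Its *A. cahirinus* levels were 622, 518, 472, 466 and 448, and the fall was called from D10 on, at -0.40 [-0.49, -0.31], -0.42 [-0.51, -0.32] and -0.47 [-0.57, -0.37]. At D5 it was -0.26 [-0.36, -0.17] and not called, or -0.47 relative to the median pair. A further component of *Cdkn1b*, at 93.08% identity, had levels of 216, 176, 156, 166 and 158 and was called on 0 days, with changes between -0.47 and -0.30. The *M. musculus* levels were 814, 504, 529, 552 and 636. All 4 days were called, with the lowest level first and the change going from -0.69 [-0.79, -0.60] at D5 to -0.36 [-0.44, -0.27] at D20. The *A. cahirinus* levels from D10 to D20 had overlapping counting intervals, whereas those of *M. musculus* at D5 and D20 did not overlap.

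*Cdkn1c*, an imprinted Cip/Kip inhibitor, had the largest called change of the 10 genes in both species, and the change came after D5. Its *A. cahirinus* levels were 105, 87.4, 313, 539 and 403. The D5 difference of -0.26 [-0.49, -0.02] was not called, and the later changes of 1.58 [1.41, 1.75], 2.37 [2.20, 2.53] and 1.95 [1.77, 2.12] were. The *M. musculus* levels were 92.3, 129, 483, 475 and 411. The D5 change of 0.48 [0.26, 0.70] was not called, and those of 2.39 [2.22, 2.56] at D10, 2.36 [2.17, 2.55] at D15 and 2.15 [1.97, 2.34] at D20 were. The highest group was thus D15 in *A. cahirinus*, a 5.15-fold rise, and D10 in *M. musculus*, a 5.23-fold rise, with D10 and D15 of *M. musculus* indistinguishable by counting error. In bulk tissue a change in the number of cells of a type and a change in RNA per cell cannot be told apart, and this holds for every gene here.

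Of the INK4 inhibitors, *Cdkn2b* rose in *A. cahirinus* on all 4 days, with levels of 60.0, 133, 146, 123 and 108. Its changes were 1.15 [0.89, 1.40], 1.28 [1.05, 1.51], 1.04 [0.80, 1.28] and, at the last time point, 0.84. D10 was the highest and D20 the lowest of the injured groups, and all 4 lay above the upper bound of the D0 level, 69.4. *Cdkn2a* was near the floor of detection in *A. cahirinus* at D0, with a mean of 0.88, or 3 reads over the libraries. The levels after injury were 3.81, 7.92, 9.43 and 10.5, the last 2 of them resting on 32 reads each. None of these days was called, with posterior probabilities of at most 2.10e-05, although the ratio to D0 was 9.02 at D10 (exact interval 2.88 to 48.0) and 10.7 at D15 (3.34 to 54.4). At D5 the exact interval of the ratio, 0.97 to 20.5, included 1. In *M. musculus* the gene number that holds the p16 transcript had levels of 0.74, 0.28, 0, 1.42 and 1.64. All are under 2 normalized reads per library, and no ratio is given.

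For *Cdkn2b* in *M. musculus* 2 gene numbers were possible, because the order of transcripts left it unsettled whether the p19ARF transcript has a number of its own. The more probable placement, with a probability of 0.78, gives *Cdkn2b* the lower number, with levels of 0, 1.22, 1.78, 3.53 and 3.96. The alternative gives it the next number up, with levels of 97.1, 109, 112, 110 and 108, and leaves the lower one to p19ARF. Neither number was called on any day, so *Cdkn2b* was not called in *M. musculus* under either placement, and *Cdkn2a* and *Cdkn2b* enter no difference between species below.

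**Figure D2:**
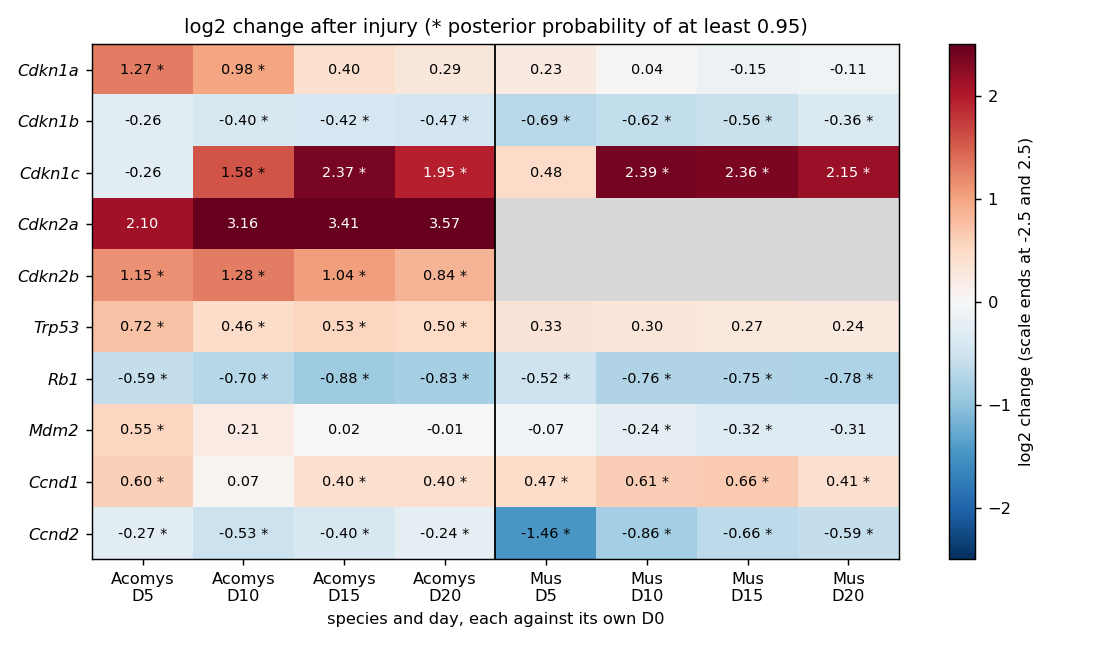
log2 change against the D0 group of the same species (colour and printed value) for each gene (listed down) and each species and day (across), with an asterisk at a posterior probability of at least 0.95. Grey cells had too few reads or no settled gene. *Rb1* and *Ccnd2* carry an asterisk in all 8 columns with a negative value, and *Cdkn1c* in the 6 columns from D10 on with a positive one.

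*Trp53* rose in *A. cahirinus* on all 4 days and was called on none in *M. musculus*. The *A. cahirinus* levels were 404, 667, 554, 583 and 570, and every injured group lay above D0. The changes were 0.72 [0.62, 0.83], 0.46 [0.36, 0.56], 0.53 [0.43, 0.63] and 0.50 [0.39, 0.60], and the D5 value was 0.52 relative to the median pair. The *M. musculus* levels were 224, 280, 276, 270 and 264. The injured groups were here also above D0, by 0.33 [0.18, 0.47], 0.30 [0.17, 0.43], 0.27 [0.12, 0.42] and 0.24 [0.09, 0.38], with posterior probabilities of at most 2.56e-07. A call therefore depended on more than the size of the change, since *Mdm2* was called in *M. musculus* at a change of -0.24.

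*Mdm2*, a p53 target and the ligase that acts on p53, moved in different directions where it was called. In *A. cahirinus* it rose at D5 alone, from 722 to 1055, by 0.55 [0.47, 0.63], or 0.34 relative to the median pair. It then stood at 838, 732 and 716, where the counting intervals of the changes at D15 and D20 included 0. The *M. musculus* levels were 462, 441, 392, 369 and 372. It fell by 0.24 at D10 and 0.32 at D15 on the log2 scale, and the D20 change of -0.31 [-0.43, -0.20] was not called, with a posterior probability of 2.02e-05.

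*Rb1*, which encodes the pocket protein that holds E2F in check, fell on every day in both species. Its levels were 961, 637, 589, 521 and 542 in *A. cahirinus*. They were 720, 502, 425, 427 and 419 in *M. musculus*. The changes lay between -0.88 [-0.97, -0.80] and -0.59 [-0.68, -0.51] in *A. cahirinus* and between -0.78 [-0.88, -0.68] and -0.52 [-0.61, -0.42] in *M. musculus*. D5 was the highest of the injured groups in both species, although relative to the median pair the *A. cahirinus* changes lay between -0.92 at D15 and -0.79 at D20, and D5, at -0.80, was no longer the highest. D10, D15 and D20 in *M. musculus* did not differ beyond counting error.

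The D-type cyclins went opposite ways in both species. *Ccnd1* rose in *A. cahirinus* from 569 at D0 to 863 at D5, 750 at D15 and 750 at D20, by 0.60 [0.51, 0.69], 0.40 [0.32, 0.49] and 0.40 [0.31, 0.49]. Relative to the median pair the D5 change was 0.39. At D10 it was 598, a change of 0.07 [-0.02, 0.16] that was not called and that turned to -0.02 relative to the median pair. A further component, at 93.36% identity, had levels of 373, 652, 431, 553 and 534 and was called on 3 days. In *M. musculus* it rose on all 4 days, from 610 at D0 to 843, 929, 962 and 810, by 0.47 [0.38, 0.55], 0.61 [0.53, 0.68], 0.66 [0.57, 0.74] and 0.41 [0.32, 0.49]. D10 was thus the lowest injured group of *A. cahirinus* and among the highest of *M. musculus*. *Ccnd2* fell in *A. cahirinus* with levels of 1568, 1298, 1084, 1190 and 1328, by between 0.24 and 0.53 on the log2 scale. Relative to the median pair its changes were -0.48 at D5 and -0.63 at D10. In *M. musculus* it fell from 3013 to 1096 at D5, a change of -1.46 [-1.52, -1.40], and then stood at 1661, 1913 and 1999 with changes of -0.86 [-0.90, -0.81], -0.66 [-0.70, -0.61] and -0.59 [-0.64, -0.55]. The lowest group was D5 in *M. musculus* and D10 in *A. cahirinus*. The D15 call in *M. musculus* was close to the threshold, with a posterior probability of 0.96. A further *A. cahirinus* component of *Ccnd2*, at 90.85% identity, went through 1757, 1236, 1036, 1122 and 1268 and was also called lower on all 4 days.

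Per kilobase of the longest transcript of a gene, the uninjured *M. musculus* ear held 522 normalized reads of *Ccnd2*, 282 of *Cdkn1a*, 263 of *Cdkn1b*, 161 of *Ccnd1*, 156 of *Rb1*, 148 of *Mdm2*, 120 of *Trp53*, 47.5 of *Cdkn1c* and 0.80 of *Cdkn2a*. This is a level and not a change, and it was not made for *A. cahirinus*, whose components are often partial.

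Averaged over D5 to D20, the *A. cahirinus* change was above that of *M. musculus* for 5 of the 8 genes that could be compared. The differences were 0.73 [0.58, 0.88] for *Cdkn1a*, 0.53 [0.47, 0.59] for *Ccnd2*, 0.43 [0.32, 0.54] for *Mdm2*, 0.27 [0.12, 0.42] for *Trp53* and 0.17 [0.07, 0.27] for *Cdkn1b*. They were -0.05 [-0.14, 0.05] for *Rb1*, -0.17 [-0.27, -0.06] for *Ccnd1* and -0.44 [-0.68, -0.19] for *Cdkn1c*. *Cdkn1a*, *Ccnd2*, *Mdm2* and *Trp53* had the same sign on all 4 days. For *Cdkn1a* the difference ran from 0.39 at D20 to 1.04 at D5, and for *Ccnd2* from 0.26 at D15 to 1.19 at D5. Over the 12605 pairs with a mean of at least 10 in a group of each species, the quartiles of this difference were -0.30 and 0.35, and its 5th and 95th percentiles were -1.28 and 1.09. Of the 8 genes, 4 were thus outside the quartiles and none outside the wider range. The *Ccnd2* value depended on the component, at 0.29 with the component of the highest mean. No test of a difference between species was possible without values per animal.

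**Figure D3:**
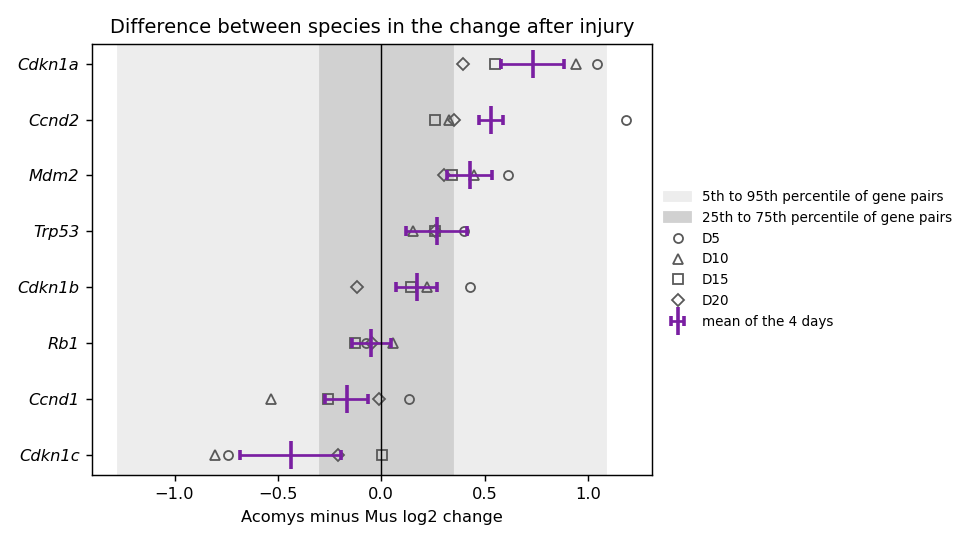
Difference between the *A. cahirinus* and the *M. musculus* log2 change (x) for 8 genes (y), with open symbols for single days and a bar for the mean of 4 days with its 95% counting interval. Grey bands give the range between the quartiles and that between the 5th and 95th percentiles of 12605 gene pairs. *Cdkn1a* lies furthest to the right at 0.73 and *Cdkn1c* furthest to the left at -0.44.

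Other genes of the pathway were read from 6 lists of symbols, and their counts are to be set against the share of all pairs called higher, which in *A. cahirinus* was 31.9%, 21.9%, 18.8% and 13.3% from D5 to D20, and for *M. musculus* 23.1%, 21.3%, 18.4% and 17.1%. The share called lower was 11.4%, 11.9%, 14.9% and 15.6% for *A. cahirinus*, while *M. musculus* had 17.2%, 17.7%, 16.2% and 15.6%. Among 10 of 12 listed partners of G1 kinases that could be paired, 5, 5, 4 and 4 were called higher in *A. cahirinus* from D5 to D20, and none lower. In *M. musculus* it was 4, 4, 4 and 2 higher, with 1 lower at D20, where the count higher is near the share of all pairs and the count lower is under it. Medians of this list were 0.56, 0.36, 0.37 and 0.40 in *A. cahirinus*, against 0.23, 0.34, 0.46 and 0.22 in *M. musculus*. Relative to the median pair they were 0.35 at D5 and 0.27 at D10 in *A. cahirinus*, against 0.20 and 0.30 in *M. musculus*. *Ccne1*, the cyclin of the G1 to S transition, rose from 16.1 at D0 to 148 at D5 in *A. cahirinus* and was still at 83.7 at D20, a change of 2.38. In *M. musculus* it rose from 15.7 to 64.8 at D5 and was at 23.3 at D20, a change of 0.57 that was not called. *Ccnd3*, the third D-type cyclin, rose on all 4 days in both species, by 0.47 to 0.74 in *A. cahirinus* and by 0.77 to 1.02 in *M. musculus*. *Cdk4*, the kinase partner of the D-type cyclins, also rose on all 4 days, from 1039 to between 1362 and 1526 in *A. cahirinus* and from 263 to between 424 and 526 in *M. musculus*. *Cks1b*, a small subunit of cyclin-dependent kinase complexes, rose by 1.37 at D5 in both species. Relative to the median pair its *A. cahirinus* rise was the smaller.

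Among the other inhibitors and pocket proteins, 5 of 7 were called higher at D5 in *A. cahirinus* and 2 on each later day, and in *M. musculus* 2, 1, 0 and 0 were called higher and 1 lower on each day. With 7 genes, 2 called in *A. cahirinus* at D10, and 1 or 2 in *M. musculus* at D5 and D10, are near the share of all pairs, as is the 1 called lower in *M. musculus*. *Rbl1*, which encodes the pocket protein p107, rose on all 4 days in *A. cahirinus*, from 210 to 483 at D5 and 308 at D20, and in *M. musculus* at D5 alone, from 220 to 296. *Wee1*, the kinase that holds CDK1 inactive, rose in *A. cahirinus* at D5 by 0.51 and fell in *M. musculus* at D20 by 0.47 on the log2 scale. Of 9 paired E2F family genes, 5, 4, 4 and 3 were called higher in *A. cahirinus* from D5 to D20 and none lower, and in *M. musculus* 2, 3, 3 and 2 were higher and 1, 1, 0 and 0 lower. The 2 of 9 called in *M. musculus* at D5 and at D20 are near the share of all pairs. *E2f7*, an atypical repressor among the E2F genes, went from 18.0 to between 73.1 and 93.1 in *A. cahirinus* and stayed called on all 4 days, whereas in *M. musculus* it was called at D5 alone, at a change of 1.45. *E2f3* rose on all 4 days in *A. cahirinus*, by 1.22 at D5, and at D10 and D15 in *M. musculus*. *Tfdp1*, the dimer partner of E2F, rose on all 4 days in both species, by 0.89 and 0.73 at D5. Relative to the median pair the *A. cahirinus* value at D5 was slightly below that of *M. musculus*. *E2f4* rose in *A. cahirinus* at D5 by 0.86 and in *M. musculus* at D10 by 0.36.

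The p53 regulators had medians near that of all pairs in *A. cahirinus*, at 0.17, -0.01, -0.08 and 0.00, and below it in *M. musculus*, at -0.38, -0.47, -0.46 and -0.42 against 0.02 to 0.04 over all pairs. In *M. musculus* 5, 6, 6 and 6 of the 10 were called lower and none higher, and in *A. cahirinus* 3, 1, 0 and 0 were higher and 0, 1, 3 and 2 lower. The list also holds *Trp63* and another p53 relative, both of them called lower on all 4 days in *M. musculus*. Its counts and medians are thus not those of regulators alone. The *A. cahirinus* count of 3 higher at D5 is near the share of all pairs and the later ones lie below it. The counts lower exceed the share of all pairs on each day in *M. musculus*. For *A. cahirinus* they do so at D15 and, slightly, at D20. *Trp63*, a p53 relative and a marker of basal keratinocytes, fell in *M. musculus* from 2957 at D0 to between 1289 and 2113, and in *A. cahirinus* from 672 at D0 to 458, 418 and 438 from D10 on. *Hipk2*, a kinase that phosphorylates p53, fell by between 1.05 and 1.28 on the log2 scale in *M. musculus* and by 0.42 and 0.57 at D15 and D20 in *A. cahirinus*. *Usp7*, a deubiquitinase of MDM2 and p53, fell on all 4 days in *M. musculus*, by 0.33 to 0.51, and in *A. cahirinus* was called higher at D5 by 0.15 and lower at D15 by 0.25. Relative to the median pair the D5 value of *Usp7* was below 0.

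Of the 20 p53 targets, 11, 5, 4 and 3 were called higher in *A. cahirinus* from D5 to D20 and 2, 2, 3 and 3 lower, and 10, 7, 6 and 6 were higher and 3, 3, 3 and 5 lower in *M. musculus*. The counts higher in *A. cahirinus* from D10 on are near the share of all pairs, and those at D5 in both species and on the later days in *M. musculus* lie above it. Most of the counts lower are near the share of all pairs. The medians were 0.53, 0.31, 0.16 and 0.09 in *A. cahirinus*, against 0.44, 0.29, 0.26 and 0.15 in *M. musculus*, above the median of all pairs in each comparison. The median pair stood at 0.21 and 0.10 at D5 and D10 in *A. cahirinus*, against 0.03 and 0.04 in *M. musculus*. Relative to it, the *A. cahirinus* medians at D5 and D10 were below those of *M. musculus*. *Pmaip1*, which encodes the pro-apoptotic protein NOXA, rose at D5 by 2.65 in *A. cahirinus*, against 1.93 in *M. musculus*. *Bax*, a pro-apoptotic BCL2 relative, rose in *A. cahirinus* at D5, from 87.6 to 175, and in *M. musculus* on all 4 days by 1.06 to 1.32. *Apaf1*, of the apoptosome, rose on all 4 days in both, from 382 to between 675 and 761 in *A. cahirinus* and from 181 to between 360 and 412 in *M. musculus*. *Tigar*, a regulator of glycolysis, fell in *M. musculus* from 149 to between 61.3 and 72.2 and in *A. cahirinus* from D10 on.

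Of 18 paired genes of S phase and mitosis, 18, 15, 16 and 14 were called higher in *A. cahirinus* from D5 to D20 and none lower. In *M. musculus* it was 17, 14, 9 and 1 higher, a share above the background on each day but D20, and 1, 1, 1 and 2 lower. Their medians were 1.71, 0.84, 0.87 and 0.83 in *A. cahirinus*, against 1.17, 0.93, 0.77 and 0.21 in *M. musculus*. *Ccnb1*, the mitotic cyclin, rose from 155 to 799 at D5 and was at 312 at D20 in *A. cahirinus*, and rose from 98.3 to 274 at D5 and was at 123, not called, at D20 in *M. musculus*. *Mcm5*, a subunit of the replicative helicase, rose by 1.80 and 1.84 at D5, and at D20 was 0.80 above D0 and called in *A. cahirinus* and 0.47 above and not called in *M. musculus*. *Cdc20*, an activator of the anaphase-promoting complex, was likewise called at D20 in *A. cahirinus* alone, at 0.99 against 0.69. *Aurkb*, a mitotic kinase, was called at D5, D10 and D15 in both species. Whether these late values differ between species was not tested.

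**Figure D4:**
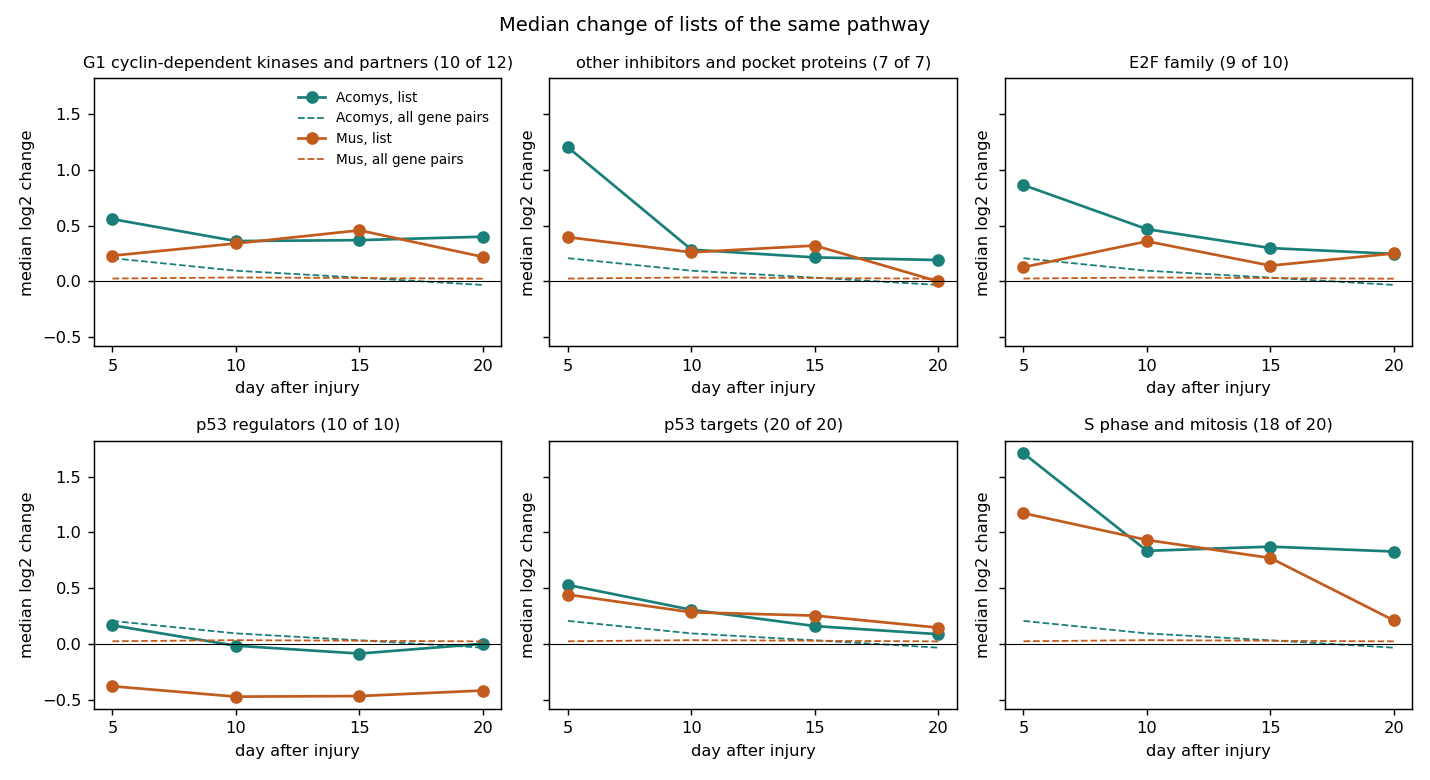
Median log2 change (y) of 6 lists of pathway genes by day after injury (x), with the number of paired genes of each list in its title, *A. cahirinus* in green, *M. musculus* in orange and dashed lines for all 14537 gene pairs. At D20 the S phase and mitosis list is at 0.83 in *A. cahirinus* and 0.21 in *M. musculus*, and the p53 regulators lie below 0 in *M. musculus* on every day.

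Markers of cell types in the ear moved with injury in both species. The levels of the markers of a type were summed, so the most abundant of them weigh most. Such a sum is not a count of cells. The summed level of 5 fibroblast markers changed by -0.21 at D5 and by between 1.58 and 2.22 from D10 on in *A. cahirinus*. In *M. musculus* it changed by 2.05 at D5 and by between 3.13 and 3.22 later, and 4 of the 5 were called higher on D10, D15 and D20 in both, with 1 called lower at D10 and D15 in *A. cahirinus*. At D5 the *A. cahirinus* sum held 2 markers called higher and 1 called lower. The *Cdkn1c* changes of -0.26, 1.58, 2.37 and 1.95 in *A. cahirinus* ran beside this sum, while in *M. musculus* *Cdkn1c* was at 0.48 at D5 when the markers were at 2.05. The sum of 7 paired skeletal muscle markers was lower after injury in both species, with changes between -2.19 and -1.30 in *A. cahirinus*, where 6 of 7 were called lower on every day and 1 higher up to D15, and between -2.96 and -2.62 in *M. musculus*, where 7 of 7 were lower. *Rb1* and *Ccnd2* fell over the same days, and *Cdkn1b* did so apart from D5 in *A. cahirinus*, where it was not called. The fat and Schwann cell sums below were also lower on every day in both species. In *M. musculus* *Ccnd2* went from -1.46 at D5 to -0.59 at D20. The muscle sum there was at -2.77 and -2.96 on those days. Fat markers were at -1.99 and -0.48, and Schwann cell markers at -1.42 and -0.52. At D10 and D15 *Ccnd2* was already at -0.86 and -0.66. Fat markers were then still at -2.05 and -1.99, and Schwann cell markers at -1.50 and -1.05. The 4 paired basal keratinocyte markers summed to 1.77 at D5 and to between -0.17 and 0.31 later in *A. cahirinus*, and to 1.25 at D5 and between -0.38 and 0.26 later in *M. musculus*. These sums hide opposite calls, since in *A. cahirinus* 3 of the 4 were called higher and 0 lower at D5, and 1 was higher and 2 to 3 lower from D10 on, and in *M. musculus* 2 were higher and 2 lower at D5 and none higher and 2 lower later. The 5 suprabasal keratinocyte markers were at 1.35, 0.88, 0.39 and 0.36 and at 1.78, 1.36, 0.99 and -0.06. They too held opposite calls, with 2 higher and 1 lower in *A. cahirinus* at D15 and D20, and with 2 to 3 higher and 1 to 2 lower in *M. musculus* on each day. The 4 macrophage and monocyte markers were at 1.87 at D5 and 0.34 at D15 in *A. cahirinus*, with none called at D20, and between 0.84 and 1.43 in *M. musculus*. *Cdkn1a* in *A. cahirinus* was highest at D5. On that day its macrophage, T cell and basal and suprabasal keratinocyte sums were also highest. So was the 1 neutrophil marker that could be paired of 5, at 5.65. In *M. musculus* at D5 the macrophage sum was 1.43, the T cell sum 0.40 and the neutrophil marker 2.53. The basal and suprabasal keratinocyte sums there were 1.25 and 1.78. *Cdkn1a* was highest at D5 in *M. musculus* too, at a change of 0.23 that was not called. Endothelial markers changed by between -0.82 and -0.13 in *A. cahirinus* and between 0.62 and 1.09 in *M. musculus*, fat markers by between -2.21 and -1.84 and between -2.05 and -0.48, Schwann cell markers by between -1.91 and -1.38 and between -1.50 and -0.52, and cartilage markers by between -0.70 and 0.04 and between -0.83 and 0.07. Cartilage markers were called in both directions on every day in both species. T cell markers changed by between 0.09 and 0.91 and between -0.37 and 0.40, and in *M. musculus* they were also called in both directions on every day. No paired marker was below 1 read per library in all groups of a species. The part of these cell types in the changes of the G1 genes was not tested.

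**Figure D5:**
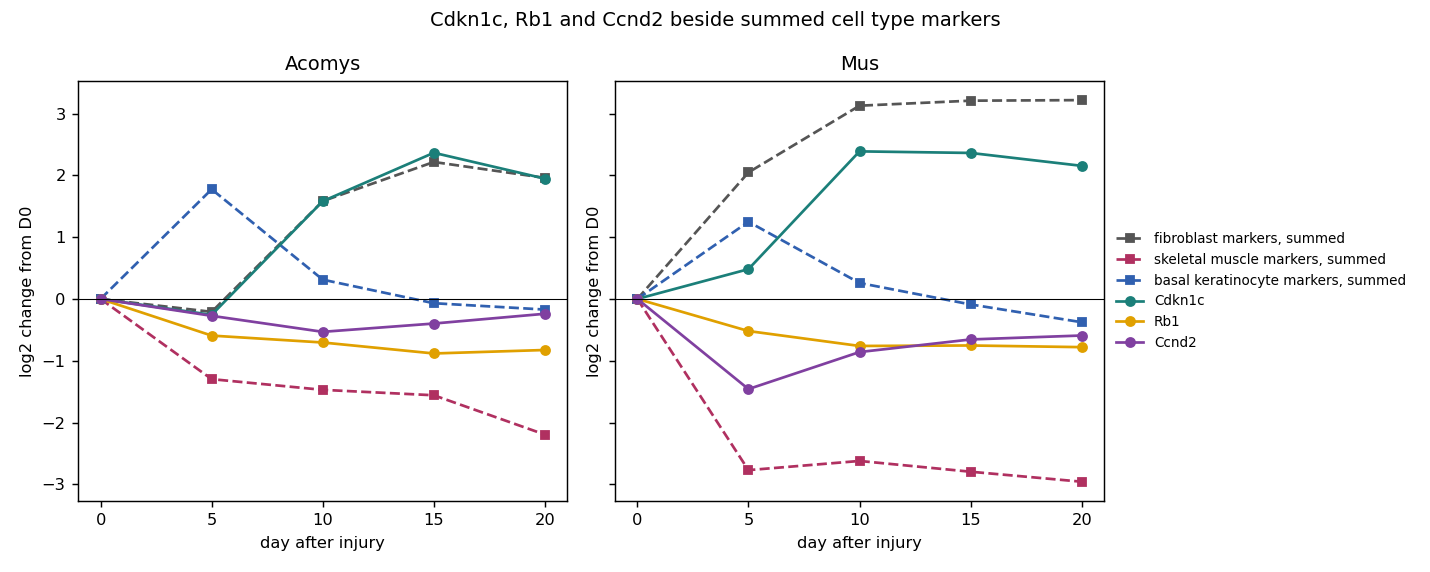
log2 change from D0 (y) by day after injury (x) of *Cdkn1c*, *Rb1* and *Ccnd2* (solid lines) beside the summed levels of fibroblast, skeletal muscle and basal keratinocyte markers (dashed lines), with *A. cahirinus* on the left and *M. musculus* on the right. *Cdkn1c* and the fibroblast sum are at 2.37 and 2.22 at D15 in *A. cahirinus* and at 2.36 and 3.21 in *M. musculus*.

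Among the 12605 pairs, the 3 whose 8 changes lay nearest to those of each gene by Euclidean distance on the log2 scale were named by a fixed rule. For *Cdkn1a* these were *Ctsh*, *Tollip* and *Galnt1*, at distances of 0.27 to 0.29, and for *Cdkn1b* *Zbtb44*, *Zkscan1* and *Nr3c1*, at 0.19 to 0.21. *Trp53* was nearest to *Timm29*, *Khdrbs1* and *Gemin5*, at 0.18 to 0.22, and *Mdm2* to *Mapkapk3*, *Gxylt1* and *Myo19*, at 0.15 to 0.17. *Rb1* was nearest to *Zfyve9*, *Pcgf5* and *Sucla2*, at 0.24 to 0.26, and *Ccnd1* to *Erf*, *Ctnnbl1* and *Gps1*, at 0.34 to 0.35. *Ccnd2* had *Caprin2* at 0.17, followed by *Phka1* and *Ddb2* at 0.40 and 0.41. *Cdkn1c* had no pair nearer than 0.83, the distance of *Dchs1*, with *Meg3* at 0.88 and *Matn2* at 0.92, all of them higher from D10 on in both species. These distances are descriptive, and the 8 values of a gene share the D0 group of each species.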

How the data were processed

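RNA of ear tissue from 10 groups, 5 time points in each of 2 species, was sequenced by the authors with 3 animals per group. For *A. cahirinus* the authors assembled transcripts with Trinity, and they counted reads with RSEM, which the submitters' processing notes name beside the build mm10 for *M. musculus*, and compared each day with D0 in EBSeq at an FDR of 0.05. The deposited tables hold 2 ratios of D0 to the later day and posterior probabilities, each a fraction from 0 to 1, for pooled groups. They are the authors' own comparisons, and their call is used here as the only test because no values per animal were used. The deposited BLASTN table gives the identity in percent, the alignment length and a bit score.

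Ratios were inverted. Group means were recovered from the plain ratio, which adds 0.01 to both means, and the posterior ratio, whose constant was found for each table. The D0 means of a species from its 4 tables then differed by at most 0.0039 on the log2 scale after scaling. Each mean was taken as one of 3 libraries for exact Poisson intervals and for the intervals of changes, which cover counting error only. PCR duplicates cannot be seen in these files.

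*M. musculus* gene numbers were named by placing 61642 deposited transcripts in order along GRCm38, at a forward-backward probability of at least 0.95. Of these transcripts, 52997 had a GENCODE gene, from a minimap2 2.31 match or from neighbouring transcripts. Of 1992 known pairs held out in turn, 1784 were placed right, 15 wrong and 193 not at all. The known pairs came from the study's supplementary data, of which only names were used. *Cdk6*, *Cdk7*, *E2f8*, *Plk1* and *Rrm2* could not be paired. Gene lists were written by hand, and markers by textbook knowledge. The 10 genes, the lists and the rules were chosen with earlier results of these data known. Named were the 10 genes, up to 4 genes per list called on at least 1 day in both species with a mean of at least 10 and the largest mean change, and the 3 nearest pairs. Mean recovery was tested on simulated data whose ratios were built by the same formulas. This checks the inversion and cannot show that the deposited ratios follow those formulas. Alternatives were a posterior probability of 0.99, a least log2 change of 1, a least mean of 10, other choices of component, the posterior ratio, a pseudocount of 1, centring on the median pair and, chosen after seeing the data, leaving out D15. Python 3.11.15, NumPy 2.4.6, pandas 2.3.3, SciPy 1.17.1 and matplotlib 3.10.9 were used. Some sequence is not reported here.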

Additional observations from a re-analysis of the deposited data

How the results depend on the processing

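Requiring an absolute log2 change of at least 1 left 7 of the 17 higher and 0 of the 11 lower calls in *A. cahirinus*, and 3 of the 7 higher and 1 of the 14 lower calls in *M. musculus*, by the construction of the filter. The EBSeq calls are those of the deposited tables, so no other tool or unadjusted p-value stands beside the count of 0. The other alternatives, among them a posterior probability of 0.99, which gave 13 lower calls in *M. musculus*, left these 4 counts within 1.5 times. Several of them could move the counts little or not at all. Each of the 10 genes was a reciprocal best match and kept its component without the cap, and no called gene was under the least mean. Centring left the posterior probabilities as they were and could only turn the direction of a call. Leaving out D15 removed its comparisons by construction. The *Ccnd2* difference between species of 0.53 was 0.29 with the component of the highest mean, 0.41 with summed components and 0.62 without D15, which was chosen after seeing the data. The cause was not tested. The differences of the other 7 genes moved by less than their counting interval under each of 6 alternatives. For these 7 the component of the highest mean was the one already used. Among recomputed log2 changes of the 10 genes 316 stayed within that interval, 20 moved beyond it and no called change turned its sign. Of the 316, 40 without the cap on identity and 36 with the component of the highest mean used the same component and could not move. A further 72 with the posterior ratio and 72 with a pseudocount of 1 differ little from the plain ratio by construction, apart from *Cdkn2a* with its few reads. Centring on the median pair moved 12 changes and left 60. Genes with a single component were likewise fixed when components were summed. Of the other genes, which were not recomputed in this way, *Usp7* at D5 in *A. cahirinus*, called at 0.15, lies below 0 relative to the median pair. Among list medians 137 stayed and 7 moved, each by centring in *A. cahirinus* at D5 or D10. No paired analysis was possible because the tables hold 1 pooled value per group, and for the same reason no replicate could be left out. Depth limits *Cdkn2a* in both species and the pairs with a mean under 10. The counting intervals of *A. cahirinus* at D15 were made for 3 libraries, although its low means showed 2 steps.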
